A study of Rattus norvegicus with 232 samples.

Results

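The genes described here are the neurotrophins Bdnf and Ntf3 and the receptors Ntrk2, Ntrk3, Ngfr and Sort1, taken by symbol from the deposited table of RefSeq genes, in which all 6 were found among 20859 genes. Their transcripts were taken from the matching tables of RefSeq transcripts and of reconstructed transcripts. RNA expression levels were measured in brain tissue of 74 inbred rat strains of the Hybrid Rat Diversity Panel by stranded sequencing of total RNA after ribosomal RNA depletion. All 232 samples are labelled as whole brain and titled as untreated, 148 carry the label male and the others give no sex, and the labels give no age. For its own strains, a part of those here, the study's methods name male rats of one age range and a sagittal part of each brain. Those methods also state that HXB/BXH and progenitor brains came from Prague as frozen tissue. The other inbred strains were received at the authors' own campus. Panel and tissue source therefore go together in those strains. The groups are strains, and no strain carries an engineered allele or an agent in the labels. An inbred strain stands for a single genome, so its animals are near-copies of each other and differences between them are largely not genetic. The panel joins classic inbred strains with the recombinant inbred families HXB/BXH (progenitors BN-Lx/Cub with SHR/OlaIpcv) and FXLE/LEXF (progenitors LE/Stm with F344/Stm). Animals are the replicates, and an animal is a strain with a replicate number in the labels. The gene table holds 214 libraries of 197 animals, and strain effects were tested over the 192 animals of the 69 strains with 2 or 3 animals, of which 30 are HXB/BXH, 16 FXLE/LEXF and 23 classic inbred strains.

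Deposited values are on a log2 scale that the authors had already normalised, so that a difference of 1 is a doubling. These tables hold no read counts, the depth of each library is unknown, and the number of animals sets the precision. Library medians of the gene table lay between 8.18 and 8.42. Libraries of SHR/OlaIpcv animal 1 were sequenced in 12 batches, and across them Bdnf ranged from 9.05 to 9.48 (SD 0.12), Ntrk3 from 12.93 to 13.42 (SD 0.15) and Ngfr from 6.78 to 7.36 (SD 0.19). In SHR/OlaIpcv animal 4, with 6 libraries, the SD between libraries was 0.05 for Bdnf, 0.13 for Ntrk3 and 0.14 for Ngfr. Several libraries stood apart from the rest. The mean of 3 Y-linked genes was between 9.35 and 9.46 in the 3 LEW/Crl animals and 9.06 in HXB17/Ipcv animal 2, against a median of 10.5 in the other animals, and 3 liver genes averaged 18.7 in the LE/Stm animal, against at most 13.4 elsewhere. Leaving out the 3 LEW/Crl animals and the 3 F344/Stm animals, which were doubted from earlier results, left 186 animals of 67 strains. Bdnf and Ntrk3 were again the members that passed the test given below. The same held when HXB17/Ipcv animal 2 was left out too (185 animals). On the liver list described below, F344/Stm scored 1.07, second to HXB10/Ipcv (1.67) among the 69 strains with 2 or more animals. Its hippocampus list score (0.33) was the highest of these strains. LE/Stm, with its lone animal in the gene table, was in none of these tests. Among the reconstructed transcripts LE/Stm has 3 animals, which entered the tests made on them. Strain effects of single reconstructed transcripts were not tested again without the doubted strains.

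Neurotrophins are secreted growth factors of neurons. They are made as pro-forms that proteases cleave, and the mature proteins act through receptor tyrosine kinases: brain-derived neurotrophic factor (encoded by Bdnf) binds TrkB (Ntrk2), and neurotrophin-3 (Ntf3) binds TrkC (Ntrk3). The p75 receptor (Ngfr) binds all of them and, joined to sortilin (Sort1), a sorting receptor of the secretory pathway, binds the pro-forms. In brain, BDNF signalling is best known for its part in synaptic plasticity, and Bdnf is a gene whose transcription rises with neuronal activity. The gene uses several alternative first exons, each behind its own promoter and each spliced to the same coding exon.

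The starts of Bdnf transcripts are shown first because the transcripts that passed or did not pass the test for a strain effect are described below by their starts. RefSeq gives 6 Bdnf promoters on the GRCr8 build, all on the plus strand of chromosome 3. The stretch before the most upstream start and that before the fourth, start 4, are printed here, each as the 250 bases that end just before the start, at chr3:116619383-116619632 and chr3:116637608-116637857. Capitals mark the letters CACGTCA, the core of the calcium and cyclic AMP response element known from an activity-responsive Bdnf promoter. This core shares the letters ACGTCA with the general cyclic AMP response element.
Bdnf, start 1: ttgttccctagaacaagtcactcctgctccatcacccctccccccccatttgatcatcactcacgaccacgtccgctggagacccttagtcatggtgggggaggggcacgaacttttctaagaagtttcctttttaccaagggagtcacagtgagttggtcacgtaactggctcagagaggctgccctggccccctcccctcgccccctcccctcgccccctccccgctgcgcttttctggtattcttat
Bdnf, start 4: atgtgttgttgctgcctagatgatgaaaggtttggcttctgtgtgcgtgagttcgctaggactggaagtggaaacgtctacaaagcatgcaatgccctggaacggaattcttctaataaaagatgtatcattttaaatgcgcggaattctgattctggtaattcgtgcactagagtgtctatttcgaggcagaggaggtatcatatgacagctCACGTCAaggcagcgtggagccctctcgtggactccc
The motif was searched on both strands in windows of 300 bases, of which 250 lie before and 50 after the start. It begins 37 bases before the fourth Bdnf start and has no match at the other 5 Bdnf starts. Of all 33469 RefSeq promoters, 605 (1.81%) hold it, and the 3 Ntf3 promoters and the Sort1 promoter do not. A match of letters describes the window and shows no binding, and the lack of a match does not show that a start is unresponsive to activity.

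Levels of different genes were compared only per length, as the summed reconstructed transcripts divided by their spliced length in kb, on a log2 scale over 197 animals. Sort1 was the most abundant at 11.64 ± 0.26 (SD over animals), followed by Ntrk2 at 11.26 ± 0.38, Ntrk3 at 10.26 ± 0.32, Bdnf at 7.01 ± 0.34, Ntf3 at 4.65 ± 0.77 and Ngfr at 4.02 ± 1.63. The ranges of strain means overlapped between Sort1 (11.08 to 12.05) and Ntrk2 (10.44 to 11.95), between Ntrk2 and Ntrk3 (9.64 to 11.01) and between Ntf3 (3.50 to 5.44) and Ngfr (1.16 to 5.92). Bdnf (6.49 to 7.55) stood clear of its neighbours in that order. The order of Ntf3 and Ngfr is not resolved, since Ngfr rests on 1 of its 3 annotated transcripts and Ntf3 on 1 of 7. The Ngfr transcript averaged 5.74 before division by length, against 7.02 for Ngfr in the reconstructed gene table, and followed NM_012610.2 with r = 0.45. The sorting receptor and the Trk receptors were thus above both ligands and p75 in every strain.

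Which of these genes differed between strains was asked with limma's moderated F-test over strains, adjusted by the Benjamini-Hochberg method over all 20859 genes. The share of variance between strains (R2, the broad-sense heritability) is above 0 even without strain differences, since few animals stand behind each strain mean, and is read here against its median over all genes, 0.434. At an adjusted p under 0.05, 36.8% of all genes passed, and 2 of the 6 members did. That share is close to the background, and what differed was which members passed. Bdnf and Ntrk3 passed, with R2 of 0.657 and 0.533, at the 94.6th and 83.3rd percentile of all genes. Ntf3, Ntrk2, Ngfr and Sort1 did not pass, with R2 between 0.410 and 0.458. In the other deposited gene tables, all 6 members passed in the v5 Ensembl table of 45 strains, where 63.6% of genes did, 1 (Bdnf) passed in the v6 Ensembl table of 57 strains, where 31.7% did, and 3 (Bdnf, Ntrk3 and Sort1) in the table of reconstructed genes, where 20.6% did. In bulk tissue, a lower level in a strain can come from fewer cells of a type or from less RNA per cell, and these cannot be told apart.

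Bdnf, the ligand of TrkB, had the strongest strain effect of the members (R2 = 0.657, adjusted p = 1.42e-08). Over the 192 animals its level ran from 8.79 through a median of 9.28 to 9.74, and the SD within strains was 0.14. It was lowest in HXB1/Ipcv, whose 3 animals were at 8.86, 8.82 and 8.93 (mean 8.87 ± 0.06). It was highest in BXH8/Cub, whose 3 animals were at 9.40, 9.68 and 9.49 (mean 9.53 ± 0.14). Every BXH8/Cub animal was above every HXB1/Ipcv animal, and the means differed by 0.66 on the log2 scale, which is 1.58-fold. Here and below, extreme strains were picked for their means, so a lack of overlap between them is no test of a strain effect. HXB1/Ipcv (batches 2, 5 and 6) and BXH8/Cub (batches 3, 7 and 10) share no sequencing batch. Their difference on its own cannot be told apart from one between batches. The extreme strains of Ntrk3, Ntrk2 and Sort1 given below share no batch either. Animals of 6 other strains reached into the HXB1/Ipcv range, while animals of 26 other strains reached into that of BXH8/Cub, so that the low end of the order was sharper than the high end. Next above HXB1/Ipcv came LH/MavRrrc, with animals at 8.96, 9.02 and 8.94, and LEXF8A/Stm, with animals at 8.86 and 9.10. Just below BXH8/Cub came HXB13/Ipcv, with animals at 9.58, 9.49 and 9.50, and BXH6/Cub, with animals at 9.38, 9.43 and 9.71. The means of these 3 high strains lay within the SD of any of the wider ones and their order is not resolved. Both extremes of Bdnf were recombinant strains of the HXB/BXH family.

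**Figure D1:**
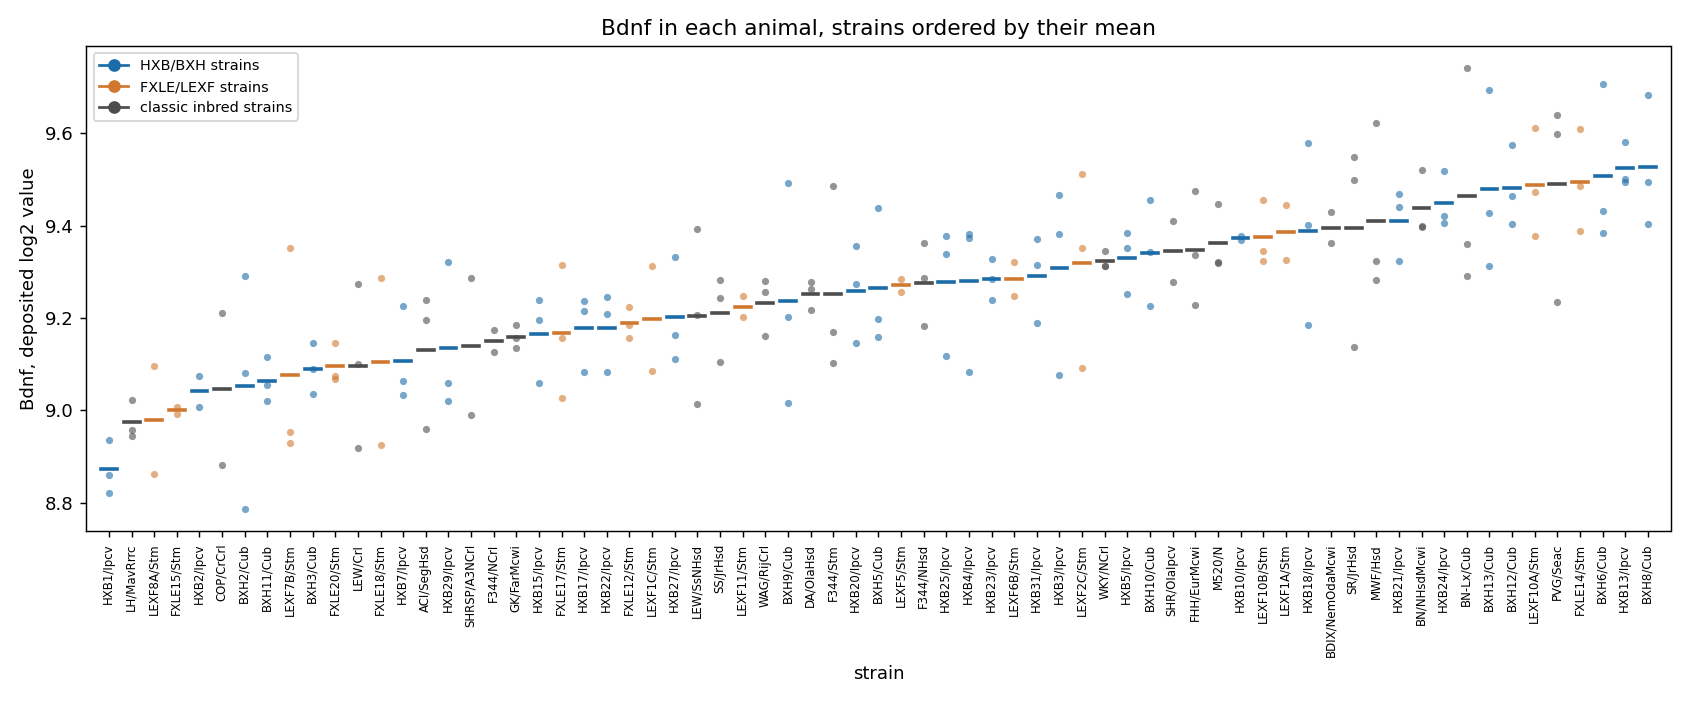
Bdnf level (deposited log2 value, vertical axis) in each animal (points) of the 69 strains with 2 or more animals, ordered from left to right by the strain mean (bars) and coloured by panel. HXB1/Ipcv lies lowest at 8.87, BXH8/Cub highest at 9.53, and strains of all 3 panels are spread along the whole order.

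The Bdnf strain effect was present in each panel fitted alone. Within HXB/BXH strains, where 19.1% of all genes passed, Bdnf had an R2 of 0.690 (adjusted p = 1.0e-05) and 2 members passed. Within FXLE/LEXF strains, where 5.00% of all genes passed, its R2 was 0.684 (adjusted p = 0.0451) and it was the single member that passed. LEXF8A/Stm was the lowest of this family at 8.98 and FXLE14/Stm the highest at 9.50. Among classic inbred strains, where 18.6% passed, its R2 was 0.580 (adjusted p = 0.0233), with LH/MavRrrc lowest at 8.97 and PVG/Seac highest at 9.49, and again no other member passed. The calls in the last 2 panels were not firm: Bdnf within FXLE/LEXF had an adjusted p of 0.813 without replicate 2, 0.194 without replicate 3 and 0.0765 with the replicate number as a block, and within classic strains 0.267 without replicate 1, 0.556 without replicate 2 and 0.0586 after centring libraries on one median. With sequencing batch as a covariate Bdnf passed in all 3 panels (R2 between 0.560 and 0.782). In these fits 32.1% of all genes passed within HXB/BXH, 5.33% within FXLE/LEXF and 17.1% among classic strains. With batch, here and below, R2 is the share of the variance left after batch.

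Bdnf levels of the HXB/BXH strains reached well below those of both progenitors. BN-Lx/Cub, with animals at 9.74, 9.36 and 9.29, and SHR/OlaIpcv, with animals at 9.28 and 9.41, did not differ detectably (difference 0.12 ± 0.13 (SE), adjusted p = 0.643 in limma's fit over all genes). Of the 30 recombinant strains, 21 had means below both progenitors, 4 between them and 5 above both. Without BN-Lx/Cub animal 1, the one at 9.74, which was also lowest of all animals for neuron markers, these counts were 19, 2 and 9. The BN-Lx/Cub mean was then 9.33, no longer above that of SHR/OlaIpcv (9.34). In the FXLE/LEXF family, F344/Stm, one of the strains doubted above, had animals at 9.10, 9.17 and 9.49 and the LE/Stm animal, whose library also held liver genes, was at 9.00. Of 16 strains, 2 lay below both, 7 between and 7 above.

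The 7 Bdnf transcripts of the RefSeq transcript table (of 11 in RefSeq) were tested one by one. NM_001270633.1, the most abundant of them with a mean of 7.68, passed (R2 = 0.565, adjusted p = 0.000368 by limma over all 45918 transcripts), in a table where 13.4% of transcripts passed. Its lowest strain was LEXF7B/Stm, with animals at 6.98, 7.27 and 6.41, and its highest was BXH13/Cub, with animals at 8.15, 8.90 and 8.14. No animal of the first strain reached the second, whose mean was 1.51 log2 units higher. On the oligodendrocyte list described below, BXH13/Cub scored lowest of the 69 strains (-0.385). Its animal at 8.90, animal 2, was the lowest of all animals for these markers (14.38). The part of this in the level of NM_001270633.1 was not tested. Its strain means followed those of the whole gene with r = 0.80 over 69 strains, which share the reads of this transcript. The call was lost without replicate 1 (adjusted p = 0.346) and without replicate 2 (0.280). The other 6 Bdnf transcripts did not pass, with R2 between 0.301 and 0.463, and the nearest to passing was NM_012513.4 (mean 6.31, adjusted p = 0.0892, and 0.0466 with batch as a covariate). Strain means of pairs of these transcripts had r from -0.16 to 0.38. The SD within strains was 0.40 for NM_001270633.1 and between 0.53 and 2.06 for the others, so a low r does not show separate strain effects. Whether the transcripts differ from each other in strain effect was not tested.

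Reconstructed transcripts give the position of each start along the gene. Of 25 Bdnf transcripts in the deposited annotation, 10 were in the table, and 2 passed, where 14.1% of all 147013 reconstructed transcripts did. The most abundant Bdnf transcript, at a mean of 7.40, starts 18223 bases after the first start, 2 bases from the distance of the fourth RefSeq start shown above, and was among those that passed (R2 = 0.557, adjusted p = 0.000701). Its levels followed those of NM_001270633.1 with r = 0.93 over 185 animals, and its extreme strains were the same, LEXF7B/Stm at 6.42 and BXH13/Cub at 8.23. The second transcript that passed starts at 41516 bases, has 2 exons and 15076 spliced bases, and was lower at 5.17 (R2 = 0.545, adjusted p = 0.00250, from LEW/Crl at 4.42 to HXB10/Ipcv at 6.05). It was assembled as a feature apart from that of the 7 transcripts that end together at 50579 bases, ends at 56681 bases, past them, and had r of only 0.27 with its closest RefSeq transcript, and its assignment to Bdnf is uncertain. LEW/Crl is among the doubted strains. The transcript that starts at the first promoter, at a mean of 6.22, did not pass (R2 = 0.447, adjusted p = 0.156), nor did the transcripts starting at 1202, 2338, 3550, 19317, 19366 and 20839 bases.

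**Figure D2:**
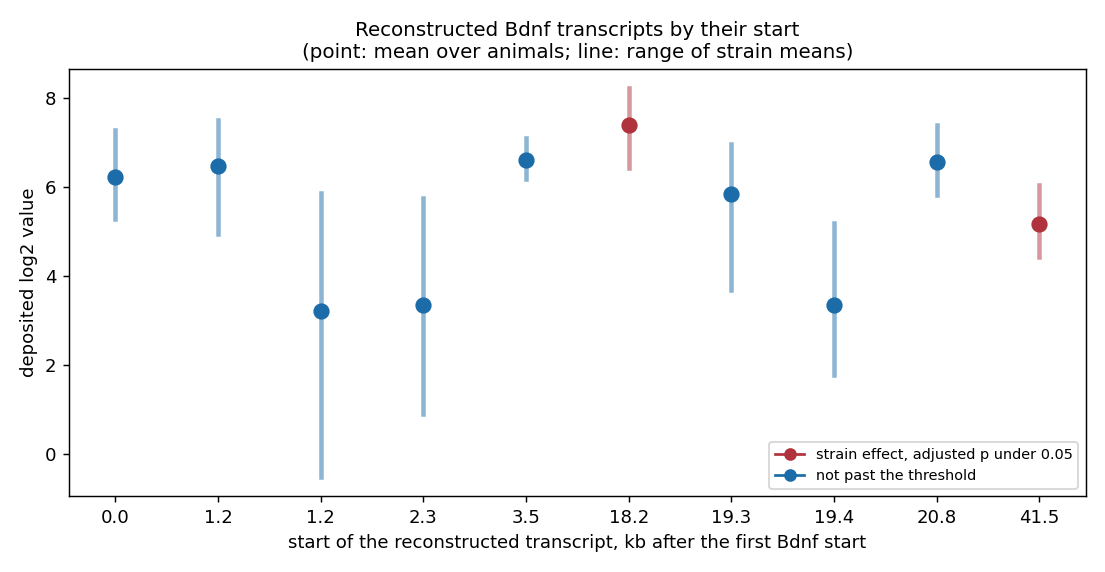
Level of each of the 10 reconstructed Bdnf transcripts (deposited log2 value, vertical axis) by the distance of its start from the first Bdnf start (kb, horizontal axis, evenly spaced). Points are means over animals, lines run from the lowest to the highest strain mean, and red marks the 2 transcripts with an adjusted p under 0.05, of which the one starting at 18223 bases has the highest mean.

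Ntf3, the ligand of TrkC, was low per length as given above, and its strain differences did not pass limma's test (R2 = 0.410, adjusted p = 0.198). Its level over animals ran from 5.27 through a median of 5.74 to 6.24, with an SD within strains of 0.17. F344/NCrl was lowest, with animals at 5.50 and 5.49, and BXH8/Cub, the strain highest for Bdnf, was highest, with animals at 5.84, 6.24 and 5.93. These groups did not overlap, but animals of 13 other strains reached into the lowest group and of 40 into the highest. Strain means of Ntf3 and Bdnf had r = 0.46 over 69 strains, a description of levels measured in the same libraries. With batch as a covariate r was 0.76 over 42 strains, against 0.51 in the same strains without it. The single Ntf3 transcript in the RefSeq transcript table, of 5 in RefSeq, had a mean of 5.20 and an R2 of 0.351.

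Ntrk3, which encodes TrkC, was the second member that passed limma's test (R2 = 0.533, adjusted p = 0.00282), and its level lay between 12.89 and 13.44 over animals. HXB2/Ipcv was lowest, with animals at 12.93 and 12.95, and LEXF10A/Stm highest, with animals at 13.21, 13.34 and 13.44. LEXF10A/Stm and HXB2/Ipcv, picked as the extremes, did not overlap, and their means differed by 0.39 log2 units or 1.31-fold, a small difference. SHR/OlaIpcv, with animals at 13.08 and 12.89, was next lowest, and BXH13/Cub, with animals at 13.19, 13.39 and 13.36, next highest. BXH13/Cub is the strain with the lowest oligodendrocyte list score, as given above. The strain range of 0.39 was no wider than the range over the 12 libraries of SHR/OlaIpcv animal 1 given above. Ntrk3 also passed within HXB/BXH strains (R2 = 0.535, adjusted p = 0.0430), but not there after centring libraries on one median (0.0958) or without replicate 1 (0.405), 2 (0.277) or 3 (0.440). Its overall call was lost when any replicate number was left out, with an adjusted p of 0.114 without replicate 1, 0.209 without replicate 2 and 0.115 without replicate 3, and was kept with batch as a covariate (R2 = 0.614, adjusted p = 9.00e-05).

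Ntrk2, which encodes TrkB, did not pass (R2 = 0.418, adjusted p = 0.207). Its level ran from 13.52 through a median of 13.81 to 14.08 over animals. HXB2/Ipcv, the strain lowest for Ntrk3, was also lowest here, with animals at 13.68 and 13.52, and COP/CrCrl was highest, with animals at 14.00 and 14.02. On the olfactory bulb list described below, COP/CrCrl scored highest of the 69 strains (0.69). HXB2/Ipcv and COP/CrCrl were picked as the extremes, so their lack of overlap is no test. Their means differed by 0.41 log2 units, 1.33-fold. With batch as a covariate Ntrk2 did pass (R2 = 0.491, adjusted p = 0.0408), in a fit in which 57.3% of all genes passed and the median R2 of all genes was also 0.491.

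Ngfr, which encodes the p75 receptor, was the most variable member within strains (SD 0.24) and did not pass (R2 = 0.425, adjusted p = 0.125). In the adult forebrain this receptor is known from the basal forebrain cholinergic neurons, and its level in whole brain lay between 6.37 and 7.97 over animals. LEXF10A/Stm, the strain highest for Ntrk3, was lowest, with animals at 6.79, 6.77 and 6.46. M520/N was highest with animals at 6.98, 7.54 and 7.97, which ranged over more than the gap between these groups. The next strains down, DA/OlaHsd with animals at 7.44, 7.46 and 7.39 and ACI/SegHsd at 7.64, 7.21 and 7.42, were tighter. Animals of 63 strains reached into the M520/N range, so this range sets no strain apart. With batch as a covariate Ngfr passed (R2 = 0.512, adjusted p = 0.00993), also within FXLE/LEXF (adjusted p = 0.0463) and classic strains (0.0268).

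Sort1, which encodes sortilin, varied least, with an SD within strains of 0.08 and strain means only 0.28 log2 units apart (1.21-fold), and did not pass (R2 = 0.458, adjusted p = 0.0967). BN-Lx/Cub was lowest with animals at 14.14, 14.45 and 14.37, and LEXF5/Stm highest with animals at 14.54 and 14.66. The animal at 14.14, BN-Lx/Cub animal 1, was also the lowest of all animals for neuron markers (13.44). The animal at 14.66, LEXF5/Stm animal 2, was the highest for neuron markers (13.93) and the lowest for those of microglia (9.32) and endothelium (10.41). Without both animals, LEXF5/Stm was left with 1 animal and was no longer in the fit, which held 189 animals of 68 strains. The lowest strain was then HXB10/Ipcv at 14.34, the highest was LEXF10A/Stm at 14.58, and Sort1 had an adjusted p of 0.178 in limma's fit. On the marker lists described below, HXB10/Ipcv scored lowest of the 69 strains for neurons (-0.16) and highest for liver (1.67). Animals of 53 other strains fell into the BN-Lx/Cub range. Of the 30 HXB/BXH strains, 27 had Sort1 means above both progenitors, 3 lay between and none below, but without BN-Lx/Cub animal 1 these counts were 25, 2 and 3. The progenitors rest on 3 and 2 animals and their difference was -0.08 ± 0.08 (SE, BN-Lx/Cub minus SHR/OlaIpcv, adjusted p = 0.624 in limma's fit). Without BN-Lx/Cub animal 1 the order turned, with means of 14.41 in BN-Lx/Cub and 14.40 in SHR/OlaIpcv.

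**Figure D3:**
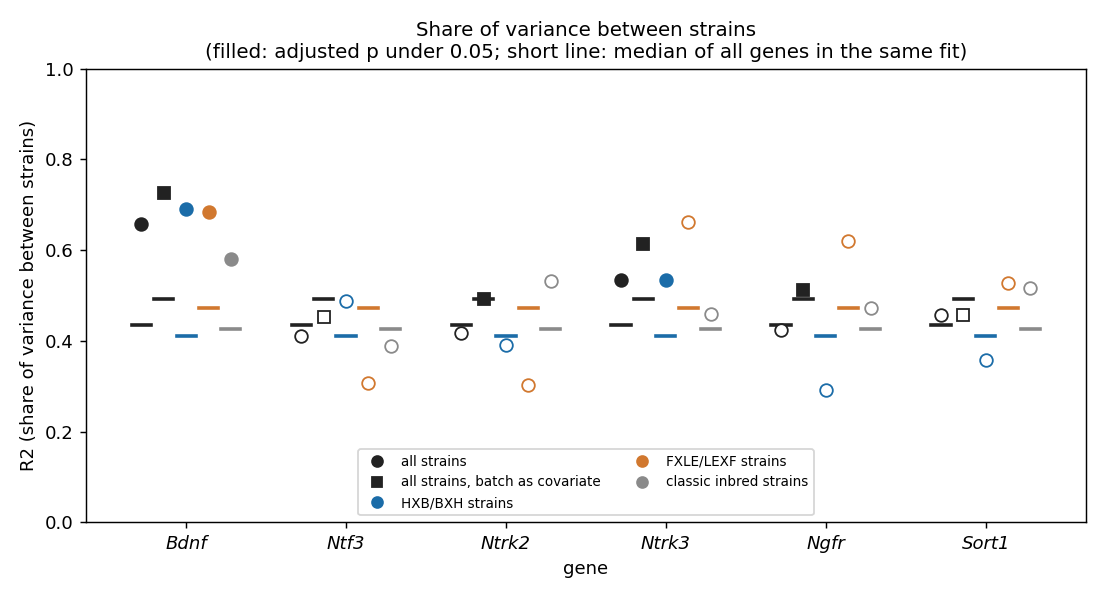
Share of variance between strains (R2, vertical axis) of each member over all strains, over all strains with sequencing batch as a covariate, and within each panel. With batch, R2 is the share of the variance left after batch. Filled symbols have an adjusted p under 0.05, and each short line is the median R2 of all genes in the same fit (between 0.409 and 0.491). Bdnf is filled in all 5 fits, with R2 between 0.580 and 0.726.

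Contrasts between named strains were tested over all genes, and no member passed. Between the HXB/BXH progenitors BN-Lx/Cub and SHR/OlaIpcv, 4.51% of all genes passed and no member, with 1 at an unadjusted p under 0.05 in limma's fit. This was Ntrk3, 0.22 ± 0.09 (SE) higher in BN-Lx/Cub, with animals at 13.41, 13.03 and 13.18 (p = 0.0102, adjusted p = 0.115). The animal at 13.41 is BN-Lx/Cub animal 1, lowest of all animals for neuron markers. Without it the Ntrk3 means were 13.11 in BN-Lx/Cub and 12.98 in SHR/OlaIpcv. With 1 library per animal and every animal kept, the Ntrk3 difference was 0.13 (p = 0.137 in limma's fit). Ntf3 was then the single member at an unadjusted p under 0.05 in limma's fit. It was 0.41 ± 0.15 (SE) higher in BN-Lx/Cub (p = 0.00759, adjusted p = 0.160), against 0.20 with libraries averaged. SHR/OlaIpcv, a hypertensive strain, and its normotensive relative WKY/NCrl differed in 0.825% of all genes and in no member, none at an unadjusted p under 0.05. The differences lay between -0.13 (Ntrk3) and 0.02 (Bdnf), and with 1 library per animal between -0.23 (Ntf3, -0.01 with libraries averaged) and 0.03 (Bdnf). F344/Stm and LE/Stm were set against each other in a separate fit that also holds the strains with 1 animal. There 0.796% of genes passed and no member, none at an unadjusted p under 0.05, but LE/Stm rests on 1 animal, assumed to vary like the other strains, whose library held liver genes, so this contrast says nothing on its own. Standard errors of the members were between 0.08 and 0.27 in these 3 contrasts.

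The receptor genes were examined by transcript as well. Of 43 RefSeq transcripts of the members, 23 were in the table and 6 passed, against the 13.4% of the whole table: besides the Bdnf transcript, these were 3 of Ntrk2 and 2 of Ntrk3. None of the 3 Sort1 transcripts or the single Ngfr transcript passed. Of the 6 that passed, the widest was Ntrk2 NM_001163168.2 (R2 = 0.675, adjusted p = 3.32e-09), whose animals ran from 2.97 to 12.82. BXH10/Cub was highest with animals at 12.70, 12.71 and 12.46. BN/NHsdMcwi was lowest with animals at 2.97, 10.37 and 3.61, a spread within a single strain of near-copies that is wider than most differences between strains. Without replicate 3 this transcript did not pass (adjusted p = 0.0776). The narrow ones were Ntrk2 XM_008771427.3, from LEXF5/Stm (11.09 and 10.67) to SHRSP/A3NCrl (11.57 and 11.63), and Ntrk3 XM_008759513.3, from BXH9/Cub at 10.71 to BXH12/Cub at 11.11. Neither passed when any replicate number was left out (adjusted p between 0.0696 and 0.859). The LEXF5/Stm animal at 10.67 is animal 2, which stood apart in its markers as given for Sort1. Without it and BN-Lx/Cub animal 1 the Ntrk2 transcript passed (adjusted p = 0.00596) and the Ntrk3 transcript did not (0.0509). LEXF5/Stm, left with 1 animal, was not in that fit. The strain means of NM_001163168.2 had r = -0.09 with those of the whole Ntrk2 gene. The gene itself did not pass for a strain effect, so this low r does not show a transcript that changed apart from its gene.

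Among the reconstructed transcripts, 53 of 102 of the members were in the table and 10 passed, again beside 14.1% of the table: the 2 of Bdnf, 4 of 20 of Ntrk2, 1 of 17 of Ntrk3 and 3 of 4 of Sort1. A 12-exon Ntrk2 transcript was highest in BN/NHsdMcwi at 11.34, the strain in which NM_001163168.2 was lowest, and lowest in BXH3/Cub at 3.59 (R2 = 0.564, adjusted p = 0.000231). A Sort1 transcript of 23 exons ran from 2.75 in HXB18/Ipcv to 9.59 in ACI/SegHsd (R2 = 0.653, adjusted p = 2.79e-08). It ends 274700 bases after the gene's start, whereas the other 3 end at 78321 bases, so that it is an assembly reaching past the gene. The main Sort1 transcript, with a mean of 14.09, also passed in this table (R2 = 0.526, adjusted p = 0.0326), unlike the RefSeq transcript that it followed most closely. Assembled isoforms of a gene share most of their reads, and the split between them is an estimate.

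Trk genes are known to make forms with the kinase domain and shorter forms without it; the short form of TrkB is the main one made by astrocytes. No annotation of the proteins was used here, and reconstructed transcripts were classed only by exon number, as long (17 or more exons) or short (10 to 16 exons). For Ntrk2, the 10 long transcripts end between 309723 and 370476 bases from the gene's start and the 8 short ones between 131216 and 186496 bases, so the classes also differ in where the transcript ends. Levels of the classes were compared per length, with each transcript divided by its spliced length in kb before summing. On this log2 scale the Ntrk2 forms lay at 9.63 ± 0.25 for long and 10.62 ± 0.40 for short ones (SD over strain means), with short above long in 191 of 197 animals. For Ntrk3, the 8 long forms lay at 9.48 ± 0.29 and the 5 short ones at 8.59 ± 0.25, and long was above short in 195 of 197 animals. Per spliced kb the order of the classes was thus opposite in the genes of TrkB and TrkC. It was not so in the sums before division by length, in which long was above short in 111 of 197 animals for Ntrk2 and in 197 of 197 for Ntrk3. Division by length gives much weight to brief assemblies. A short Ntrk2 transcript of 1611 spliced bases averaged 10.24 before division, and a long Ntrk3 transcript of 2749 bases averaged 9.64. The long Ntrk3 transcript with the highest mean, 11.61, has 19172 bases. The per-kb order without such brief assemblies was not computed.

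For the test between strains the balance was taken as long minus short from sums that were not divided by length. For Ntrk2 it differed between strains (R2 = 0.527, permutation test over 197 animals of 71 strains, p = 0.00059, adjusted p = 0.00118 over both genes). It was lowest in ACI/SegHsd at -0.44 ± 0.21 (n = 3) and highest in LEXF5/Stm at 1.50 ± 1.29, whose 2 animals were at 0.58 and 2.41. The one at 2.41 was LEXF5/Stm animal 2, which stood apart in its neuron, microglia and endothelium markers as given for Sort1, and the part of this in its balance was not tested. Without LEXF5/Stm the permutation test still gave an adjusted p of 0.0104, but without replicate 2 it gave 0.631. For Ntrk3 the balance did not pass (R2 = 0.424, adjusted p = 0.0846 by the same permutation test), with strain means from 1.37 in ACI/SegHsd to 2.57 in LEXF1A/Stm. From sums per spliced kb, a choice added after the data were seen, Ntrk2 had an R2 of 0.503 (adjusted p = 0.00562) and Ntrk3 an R2 of 0.451, which passed (adjusted p = 0.0326, both by permutation), so the call for Ntrk3 depends on this choice. ACI/SegHsd was lowest for Ntrk2 on both scales, and for Ntrk3 it was lowest before division by length while BXH11/Cub, at 0.32, was lowest after it.

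**Figure D4:**
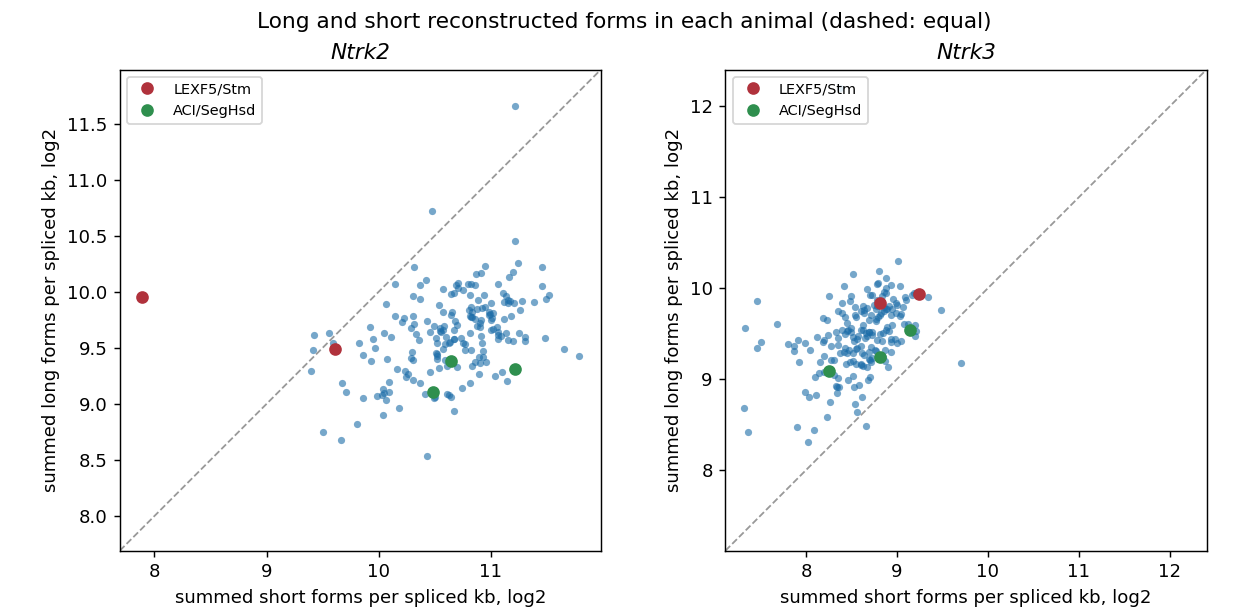
Summed level per spliced kb of long forms (vertical axis, log2) against that of short forms (horizontal axis, log2) of Ntrk2 and Ntrk3 in each of 197 animals (points); the dashed line marks equal levels. Ntrk2 animals lie below the line in 191 cases, whereas 195 Ntrk3 animals lie above it, and LEXF5/Stm and ACI/SegHsd are coloured.

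Levels in whole brain follow its makeup, so the strain means of each member were set against scores of 13 lists of marker genes of cell types and brain parts, 78 pairs in all, over 69 strains. Every list was detected, with no marker at a mean under 2. By permutation tests, 15 pairs passed for Pearson's r and 10 for Spearman's rho after adjustment over the 78. Each was measured in the same libraries, and the part of these lists in the strain effects was not tested. The share of all genes with such relations was not computed, so they are not shown to be particular to the members. The permutations, here and for the activity list below, treat strain means as exchangeable. Strains of a recombinant family and substrains are related, and this relatedness was not modelled. The study reports inflated false positives for its linear eQTL model and holds relatedness to be the likely reason. These p-values can therefore be too small. With batch as a covariate r is given over the 42 strains whose adjusted means could be set on one scale, without a large loss of precision, once the libraries of each animal had been averaged; the adjusted means share the estimated batch offsets. With batch, 22 of the 78 pairs had an r beyond 0.5 in size, against 2 in the same 42 strains without it, and 14 pairs had the other sign, so values of r with and without batch differ widely.

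The relation of Bdnf to the choroid plexus list passed by r and not by rho (r = -0.33, rho = -0.31, adjusted p = 0.0346 and 0.0565 by permutation), and none of its other 12 passed. With batch as a covariate r was -0.64 for choroid plexus, and Bdnf then also had r of 0.67 with cerebellar granule cells, -0.61 with meninges and -0.58 with microglia, against 0.24, -0.24 and -0.00035 in the same 42 strains without it. None of the relations of Ntf3 passed, with r between -0.26 and 0.21, but with batch as a covariate r was 0.64 with cerebellar granule cells, -0.56 with choroid plexus, -0.55 with microglia and -0.54 with meninges, against 0.27, -0.25, 0.01 and -0.10 in the same 42 strains without it. Ntrk2 rose with the astrocyte list (r = 0.39, rho = 0.37, p = 0.00084 and 0.00202, adjusted p = 0.0109 and 0.0263 by permutation), and r was 0.42 without the 2 strains farthest from the median, 0.22 within HXB/BXH, 0.36 within FXLE/LEXF and 0.73 among classic strains, and 0.51 with batch as a covariate. It also rose with the hippocampus list (r = 0.41, rho = 0.46, p = 0.0005 and 0.00011, adjusted p = 0.0109 and 0.00429 by permutation), and r was 0.48 without the farthest 2 and 0.76 with batch. The strains highest on this list, F344/Stm (0.33) and BXH6/Cub (0.31), also had high liver list scores (1.07 and 1.04). The hippocampus list was made of Prox1, Zbtb20, Dsp, Tdo2 and Wfs1. The animal highest on it was that of LE/Stm, whose library held liver genes, at 10.01 against a mean of 8.69. LE/Stm is not among the 69 strains. Ntrk2 had r = -0.06 with the liver list, and the part of liver content in its relation to the hippocampus list was not tested. With batch the r of Ntrk2 was also -0.63 with oligodendrocytes, 0.62 with choroid plexus and 0.62 with meninges, against -0.32, -0.01 and 0.25 in the same 42 strains without it. With cerebellar granule cells, cholinergic neurons and microglia it was -0.54, -0.52 and 0.50 with batch, against -0.11, -0.22 and 0.06. Its relation to the olfactory bulb list passed by r (0.33) and not by rho (0.20, adjusted p = 0.249 by permutation). This r was 0.21 without the farthest 2 strains, 0.39 within HXB/BXH, 0.32 within FXLE/LEXF and 0.33 among classic strains, and 0.23 with batch. Its relation to blood genes passed by r (-0.35) and not by rho (-0.32, adjusted p = 0.0527 by permutation), and r was 0.27 within FXLE/LEXF, of the other sign.

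All 4 relations of Ntrk3 that passed by r were negative: with choroid plexus (r = -0.40, rho = -0.39, p = 0.0008 and 0.00104, adjusted p = 0.0109 and 0.0173 by permutation), oligodendrocytes (r = -0.39), blood (-0.34) and endothelium (-0.33). By rho, those with oligodendrocytes, endothelium and blood did not pass (adjusted p = 0.0527, 0.0585 and 0.0747 by permutation), and r with endothelium was -0.17 after centring libraries on one median. The oligodendrocyte relation was -0.50 within HXB/BXH, -0.62 within FXLE/LEXF and -0.08 among classic strains, and -0.15 with batch as a covariate. Ngfr rose with the cholinergic neuron list, made of Chat, Slc18a3 and Slc5a7, the enzyme and transporters of acetylcholine (r = 0.46, rho = 0.52, p = 0.00011 and 2.0e-05, adjusted p = 0.00429 and 0.00156 by permutation). This r was 0.44 without the farthest 2 strains, 0.63 within HXB/BXH, 0.60 within FXLE/LEXF and 0.26 among classic strains, and 0.27 with batch as a covariate. Ngfr was also related to neurons, astrocytes, microglia and choroid plexus, with r between 0.32 and 0.34, and by rho alone to meninges (0.35, adjusted p = 0.0322 by permutation). Its r with neurons was 0.20 after centring libraries on one median and -0.28 among classic strains. Its r with choroid plexus was 0.05 among classic strains. With batch r was 0.66 for choroid plexus, 0.67 for microglia, 0.68 for meninges and -0.60 for cerebellar granule cells, against 0.58, 0.32, 0.41 and -0.09 in the same 42 strains without it. Sort1 rose with the neuron list (r = 0.47, rho = 0.42, p = 4.0e-05 and 0.00028, adjusted p = 0.00312 and 0.00728 by permutation), and r was 0.37 without the farthest 2 strains, 0.51 within HXB/BXH, 0.67 among classic strains and 0.07 within FXLE/LEXF.

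Since Bdnf is transcribed on neuronal activity, a list of 15 activity-regulated genes was treated in the same way, as a family of 6 pairs of its own, added after the data were seen. Bdnf rose with this list (r = 0.44, rho = 0.41, p = 0.00014 and 0.00048, adjusted p = 0.00084 and 0.00288 by permutation over 69 strains). The relation was 0.38 without the farthest 2 strains and 0.50, 0.37 and 0.46 within HXB/BXH, FXLE/LEXF and classic strains. It was 0.48 with batch as a covariate, against 0.45 in the same 42 strains without it. How many of all genes rise with this list to the same degree was not computed. HXB7/Ipcv had the lowest list score and ranked number 14 of 69 from the lowest for Bdnf; LH/MavRrrc had the next lowest score and ranked number 2. HXB13/Ipcv and LEXF1A/Stm had the highest scores and ranked number 68 and 53. HXB1/Ipcv, lowest for Bdnf, was not among the low scores. Of the other members, Sort1 passed by rho (0.33, adjusted p = 0.0182) but not by r (0.26, adjusted p = 0.0888 by permutation), and r was between 0.02 and 0.16 for the other 4.

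The same relation was computed for each Bdnf transcript. NM_001270633.1, paired above with the start at 18223 bases, had r = 0.45 and rho = 0.42 with the list (adjusted p = 0.00084 and 0.00224 by permutation over 7 transcripts, 69 strains). NM_001270631.1 (r = 0.30, and 0.17 without the farthest 2 strains, adjusted p = 0.0432) and NM_012513.4 (r = 0.28, adjusted p = 0.0479) passed by r but not by rho, for which the permutation gave adjusted p = 0.713 and 0.170. The other 4 had r between -0.15 and 0.17. Whether the transcripts differ from each other in this relation was not tested. Gene by gene, strain means of Bdnf had r = 0.74 with Homer1, 0.66 with Nr4a2 and 0.62 with Egr2, but 0.08 with Npas4, 0.05 with Junb, 0.04 with Ier2 and -0.09 with Vgf, as a description over 69 strains. The list therefore did not move with Bdnf as a unit.

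**Figure D5:**
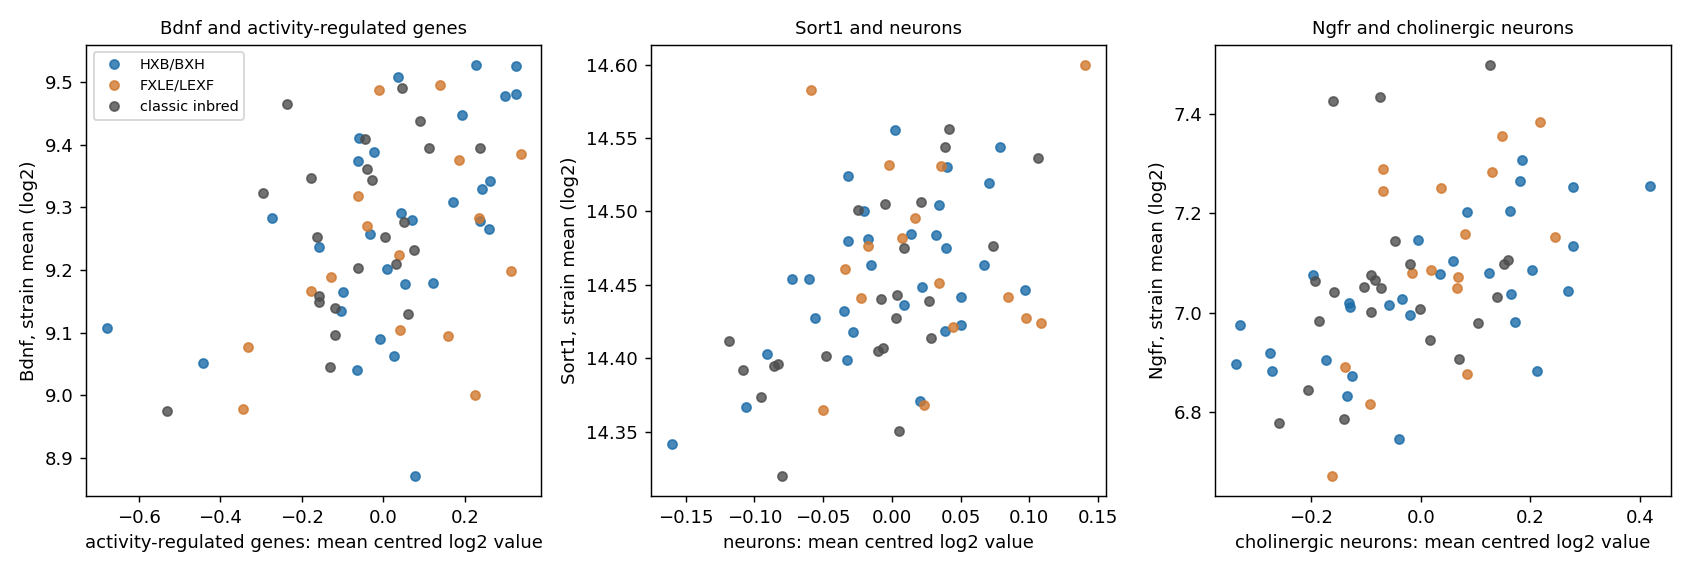
Strain means (deposited log2 value, vertical axes) of Bdnf, Sort1 and Ngfr against the score of a gene list (mean centred log2 value, horizontal axes): activity-regulated genes, neuron markers and cholinergic neuron markers. Points are 69 strains coloured by panel, and r is 0.44, 0.47 and 0.46.

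Other genes of the pathway were taken from lists and tested in the same fit, and each count stands beside the 36.8% of all genes that passed, or, with batch as a covariate, the 57.3% that did. Of 12 genes of the sortilin family and of pro-neurotrophin processing, 7 passed, and 10 with batch, with a median R2 of 0.494 beside 0.434 over all genes: Plat (R2 = 0.628), tissue plasminogen activator, whose plasmin cleaves pro-BDNF, ran from 11.13 in LEXF11/Stm to 11.51 in HXB3/Ipcv, Sorcs3 (0.583) from 10.48 to 10.80 and Sorl1 (0.567) from 13.66 to 14.02. Of 35 receptor adaptors and kinases of the cascade, 7 passed (median R2 0.417), and 18 did with batch. The highest were the adaptors Shc1 (R2 = 0.607, HXB27/Ipcv 8.49 to SS/JrHsd 9.11) and Irs2 (0.575, HXB10/Ipcv 10.73 to BXH12/Cub 11.28) and the kinase Rps6ka2 (0.532). Of 11 genes whose proteins act with p75, 1 passed, Nfkb1 (R2 = 0.612), a subunit of NF-kappaB, and 5 did with batch. Of 12 known regulators of Bdnf transcription, 4 passed, and 12 did with batch. Carf (R2 = 0.602) ran from 9.39 in BN/NHsdMcwi to 10.05 in HXB24/Ipcv, the repressor Rest (0.553) from 8.87 in LEXF5/Stm to 9.36 in BXH9/Cub, and Mef2d (0.494) from 12.04 in BN-Lx/Cub to 12.57 in LEXF5/Stm. Without LEXF5/Stm animal 2 and BN-Lx/Cub animal 1, which stood apart in their markers, Rest ran from 8.97 in BXH13/Cub to 9.36 and Mef2d from 12.05 in HXB10/Ipcv to 12.56 in BXH12/Cub, and both passed (adjusted p = 0.00222 and 0.0222 in limma's fit). LEXF5/Stm, left with 1 animal, was no longer in that fit. HXB10/Ipcv also stood apart in its neuron and liver list scores, as given for Sort1. Of the 15 activity-regulated genes, 12 passed (median R2 0.579), and 14 did with batch. Fosb (R2 = 0.712, 6.17 to 7.82), Egr2 (0.663, 6.19 to 8.17) and Arc (0.623, 10.64 to 12.08) had the same extreme strains, lowest in HXB7/Ipcv and highest in BXH13/Cub, the strain highest for NM_001270633.1. BXH13/Cub stood apart in its oligodendrocyte list score, as given for that transcript.

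The genes with strain means most like each member were sought among the genes above the table's median level, by Pearson's r over 69 strains, as a description. Bdnf was most like Pdp1 (r = 0.83), Rgs2 (0.76) and Pcsk1 (0.75); Pcsk1 encodes a prohormone convertase and is also in the processing list. Ntrk3 was most like Dgkh (0.82), Kcnj6 (0.78) and Neto1 (0.78), and Ntrk2 most like R3hdm2 (0.79), Srrm2 (0.78) and Atp1b2 (0.78). For Sort1 these were Hspa12a (0.75), Lmtk2 (0.74) and Ap2b1 (0.74), and for Ngfr Zfhx3 (0.66), Phldb1 (0.64) and Bin1 (0.63). Ntf3, the member with the lowest R2, had the least similar neighbours, Arpc5 (0.55), Lsm8 (0.54) and Cnot2 (0.53). Between members, r of Ngfr was -0.43 with Bdnf, -0.37 with Ntf3 and -0.29 with Ntrk3, and r of Bdnf was 0.40 with Ntrk3 and 0.01 with Ntrk2, its receptor gene. With batch as a covariate over 42 strains these became -0.75, -0.73, -0.63, 0.61 and -0.35, of the other sign for Ntrk2. In the same 42 strains without batch they were -0.45, -0.39, -0.33, 0.45 and 0.12.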

How the data were processed

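Total RNA of whole brain was depleted of ribosomal RNA and sequenced by the authors with a stranded kit. The values deposited by the authors are on a log2 scale. For the v5 tables the authors estimated counts with RSEM on the rn6 genome and an Ensembl annotation, removed 1 factor of unwanted variation and applied the regularised log transformation of DESeq2. How the v6 and v7.1 tables used here were made, and on which build, is not given in the sources used here; the submitters' processing notes name cutadapt 1.9.1, Bowtie2 2.3.4.3 and 2.4.5, HISAT2 2.1.0 and 2.2.1, StringTie 1.3.5 and 2.2.1 and RSEM 1.3.1 and 1.3.3. A shift of unwanted variation already removed cannot be recovered, and transcript values are estimated splits of shared reads. Without counts, depth is unknown.

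Strain, replicate number and batch came from the labels; in 26 samples the title names another batch. Libraries of an animal were averaged, and 73 spike-ins were left out of the gene table. Strain effects were tested with limma 3.58.1 in R 4.3.3 (moderated F, Benjamini-Hochberg over all features, adjusted p under 0.05), and contrasts in the same fit, except that of F344/Stm with LE/Stm, made in a fit that also holds the strains with 1 animal. In a test on simulated data at the size of the gene table the fit was checked to recover changed genes. Relations and isoform balances were tested with 100000 permutations in Python 3.11.15 (numpy 2.4.6, scipy 1.17.1), two-sided, and the isoform classes by exon number were chosen after the exon numbers were seen. Alternatives were batch as a covariate, the replicate block, each replicate number left out, 1 library per animal, a filter at the median level, centred libraries, another spread model, other tables and doubted libraries left out. The labels tie animals of different strains only through shared sequencing batches, and p-values measure the spread between animals of a strain. The named genes are the members and their transcripts, the 3 genes of each list with the highest R2 among those passing, and the 3 most similar genes of each member. Members and lists were chosen with earlier results of these data known. A further pathway list is not reported here.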

Additional observations from a re-analysis of the deposited data

How the results depend on the processing

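Bdnf passed in the gene table under every alternative run, whereas the number of members passing, 2, became 4 with batch as a covariate (adding Ntrk2 and Ngfr), 6 in the v5 Ensembl table of fewer strains, where 63.6% of all genes passed, 1 in the v6 table (31.7%), 3 in the gene table of the v7.1 reconstruction (20.6%, adding Sort1), and 1 whichever replicate number was left out (1 to 1). Over all genes, 7677 passed, 11959 (57.3%) with batch as a covariate, 3116 to 6122 with a replicate number left out and 3636 among genes above the median level. Within HXB/BXH strains the 2 members became 1 with libraries centred on one median and 1 to 1 with a replicate number left out. Within FXLE/LEXF the 1 became 2 with batch, 0 with the replicate block and 0 to 1 with a replicate number left out; within classic strains it became 2 with batch, 0 after centring and 0 to 1. The 6 RefSeq transcripts became 1 to 1 with a replicate number left out. The R2 of the Ntrk2 balance was 0.465 without replicate 2, no longer past the threshold, within a range of 0.465 to 0.666 over the replicate numbers, and that of the Ntrk3 balance, 0.424, became 0.451 and past the threshold with sums per spliced kb. The cause of these changes was not tested, except that fewer animals entered where a replicate was left out. Same-numbered animals of different strains deviated together only slightly more than others. Their median r was 0.012 over 5927 pairs, with 32.9% above 0.1, against -0.007 and 28.6% for other numbers. The numbers were not taken to pair animals. With the replicate block 2 members passed in the gene table and 7963 genes in all. Of the other values under an alternative, 421 kept their side of the threshold, 16 newly passed and 31 no longer did. With 1 library per animal, some differences of members between strains moved by over 1.5 times, with no adjusted call. The contrasts of BN-Lx/Cub with SHR/OlaIpcv and of SHR/OlaIpcv with WKY/NCrl were not run with batch as a covariate, since they could not be estimated in that fit once the libraries of each animal had been averaged; a fit on single libraries was not run.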
